A study of Mus musculus with 19 samples.

Results

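Interferon-β, the product of Ifnb1, is a secreted cytokine that most cells make only while a nucleic acid or pattern sensor is engaged. Among the immune cells sorted from mouse melanomas, 410 macrophages held Ifnb1 transcripts at or above a fixed count, and they are described here. They were selected on measured UMIs (unique molecular identifiers, each standing for 1 captured transcript) in 2 single-cell RNA sequencing libraries. A member had at least 500 UMIs, at least 300 genes, under 10% mitochondrial UMIs, at least 3 Ifnb1 UMIs, and at least 0.2% of its UMIs in C1qa, C1qb and C1qc, the complement genes that mark tumour macrophages. It had under 3 UMIs of Arg1 and Inhba, under 3 of Lyve1, Cd209f and Fcna, under 4 of the cycling genes Mki67 and Top2a, and none of Cd3d, Cd3e and Cd3g. These gates left 281 of 8239 filtered cells in the SCR library and 129 of 8361 in the KO library, 410 of 16600 in all.

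The tumours grew from the mouse melanoma line B16-F10, which carried either a scrambled control guide (SCR) or a knockout of Mettl5 (KO), which encodes a methyltransferase of ribosomal RNA. The knockout was in the tumour cells, and the macrophages came from the host. Tumours were dissociated and live CD45+ cells were sorted and sequenced from the 5′ end of the transcripts. The labels give no age or number of mice, no time of resection and no count of knockout clones. There was 1 library per genotype, so KO was set beside SCR without a test, while cell groups within the libraries were compared with the library as a block.

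A cell that senses foreign or misplaced nucleic acid, through MDA5, RIG-I, cGAS with STING, or a Toll-like receptor, activates the kinases TBK1 and IKKε and the transcription factors IRF3 and IRF7. These join NF-κB and AP-1 on the Ifnb1 enhancer. Secreted interferon-β binds the receptor IFNAR on the same and on neighbouring cells, and factors such as STAT2 and IRF9 then switch on interferon-stimulated genes, among them Irf7, which extends the response to the Ifna genes. In tumours, interferon-β made by myeloid cells is known for its part in the priming of T cells.

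The 250 bases before the start of 4 genes are printed to show the letters that resemble sites of these factors. The genes were chosen as the selecting gene, an Ifna gene, an antiviral gene and a chemokine gene that the results turn on. They are RefSeq sequences of GRCm38.p6, 5′ to 3′ on the strand of the gene. Capitals mark AANNGAAA, a core of the sites of interferon regulatory factors, and GGANTTTCC, a form of the NF-κB site, each searched on both strands, with overlapping matches joined.
Ifnb1: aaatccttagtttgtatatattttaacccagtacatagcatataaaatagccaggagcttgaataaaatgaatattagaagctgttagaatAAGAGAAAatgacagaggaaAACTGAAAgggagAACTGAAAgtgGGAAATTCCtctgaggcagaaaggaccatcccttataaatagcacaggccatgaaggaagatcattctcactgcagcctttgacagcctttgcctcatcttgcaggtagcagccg
Ifna4: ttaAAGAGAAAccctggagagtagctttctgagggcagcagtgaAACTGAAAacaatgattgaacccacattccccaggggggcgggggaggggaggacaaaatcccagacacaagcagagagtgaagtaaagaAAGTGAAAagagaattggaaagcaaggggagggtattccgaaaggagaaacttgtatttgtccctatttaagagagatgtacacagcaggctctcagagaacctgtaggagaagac
Ifit1: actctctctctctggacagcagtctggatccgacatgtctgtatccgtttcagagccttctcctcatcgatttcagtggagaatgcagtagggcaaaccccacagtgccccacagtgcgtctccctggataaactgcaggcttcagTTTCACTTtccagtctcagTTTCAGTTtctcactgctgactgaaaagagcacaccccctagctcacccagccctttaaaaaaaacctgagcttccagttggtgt
Cxcl10: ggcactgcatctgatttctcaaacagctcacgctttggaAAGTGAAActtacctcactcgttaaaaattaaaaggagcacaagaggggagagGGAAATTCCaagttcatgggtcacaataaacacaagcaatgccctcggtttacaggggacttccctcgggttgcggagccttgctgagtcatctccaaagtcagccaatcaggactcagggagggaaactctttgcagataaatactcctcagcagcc
The Ifnb1 stretch (chr4:88522795-88523044, minus strand) held 3 matches of AANNGAAA and 1 of GGANTTTCC, whose first bases lay from 159 to 115 bases before the start. The stretch of Ifna4 (chr4:88841566-88841815, plus strand) held 3 of AANNGAAA and none of GGANTTTCC. That of Ifit1 (chr19:34640639-34640888, plus strand) held 2 of AANNGAAA, both on the opposite strand, and none of GGANTTTCC. Cxcl10 (chr5:92348890-92349139, minus strand) had 1 of each. AANNGAAA was in 21.6% of the 27025 genes' stretches and GGANTTTCC in 1.05%. Among the antiviral genes listed below, 22 of the 28 with a stretch held AANNGAAA, as did 15 of 19 interferon ligands. GGANTTTCC was in 5 of 14 chemokine genes and 6 of 20 genes of NF-κB cytokines. A match describes letters in this window and is not a measured site.

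Ifnb1 itself (ENSMUSG00000048806) chose the cells, so its level is a description. Members held a median of 12 Ifnb1 UMIs in SCR (lowest 3, highest 110) and 9 in KO (lowest 3, highest 124). Summed over members, Ifnb1 stood at 1278 CPM (UMIs per 1000000 UMIs of the group in that library) in SCR (exact Poisson 95% interval 1242 to 1314) and 1276 in KO (1220 to 1334). These and all intervals below cover counting error only. Members spanned the whole range, and the 28 SCR members of highest count held 32.1% of the SCR members' Ifnb1 UMIs. Just inside the threshold stood 32 SCR and 22 KO members with exactly 3 UMIs, and just outside it 38 and 22 macrophages with exactly 2. In T cells (at least 3 Cd3 UMIs and no C1q UMI), which should lack the transcript, 3 of 149 cells in SCR held any Ifnb1 UMI and none of 123 in KO, where 3 counts of the total, the limit used for a count of 0, allow up to 2.44%. T cells were shallower, with medians of 3984 and 3771 UMIs against 11359 and 9577.5 in macrophages.

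The members were 9.48% of the SCR macrophages that passed every gate but that on Ifnb1 (281 of 2963, exact binomial 95% interval 8.45 to 10.6%) and 3.98% of the KO macrophages (129 of 3240, 3.33 to 4.71%). The KO share was 0.42 times the SCR share (95% interval 0.343 to 0.514). With each cell thinned to 5000 UMIs, and 508 SCR and 691 KO cells below that depth left out, the shares were 7.86% and 2.94%, a ratio of 0.374. The share was lower in KO at every count of Ifnb1 UMIs plotted. With 1 library per genotype the spread between tumours is not known. Of all filtered cells, 570 in SCR and 206 in KO held at least 3 Ifnb1 UMIs, so members were 49.3% and 62.6% of them. Of the others, 110 and 35 failed the cycling gate alone, 54 and 11 the C1q gate alone, and 44 and 7 the gate on Arg1 and Inhba alone. Among C1q cells that failed the cycling gate alone, 13.5% (110 of 815) in SCR and 4.20% (35 of 834) in KO held at least 3 Ifnb1 UMIs. Among cells under the C1q gate the shares were 2.77% (95 of 3431) and 0.479% (16 of 3343).

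**Figure D1:**
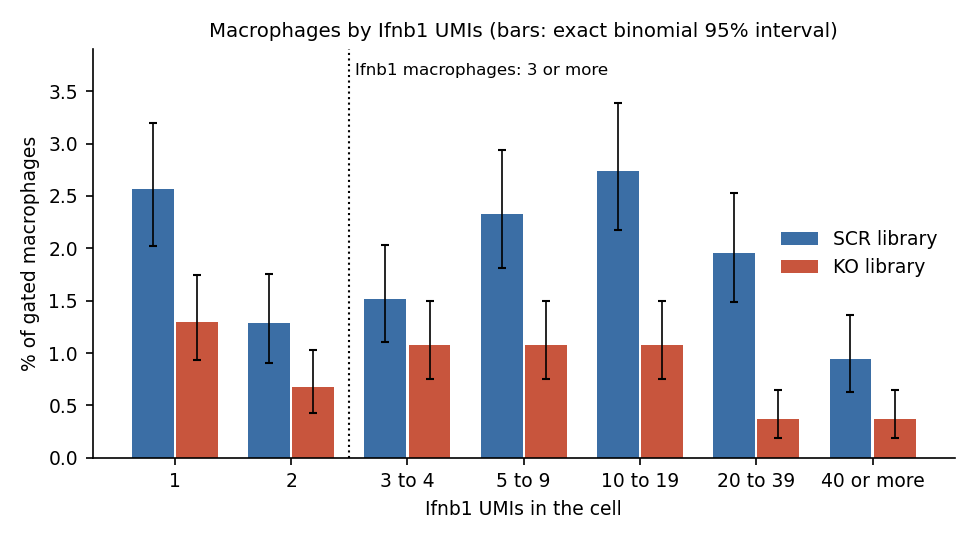
Percent of gated macrophages (y axis) by the number of Ifnb1 UMIs in the cell (x axis) in the SCR (blue) and KO (red) libraries, with exact binomial 95% intervals. Cells with no Ifnb1 UMI are not drawn, and the dotted line marks the threshold of 3 UMIs. The SCR bar is the higher in every class, also in the classes of 1 and 2 UMIs that are not members.

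The label was checked against the markers of macrophages. The 9 macrophage markers, none at 0, summed to 9538 CPM in SCR and 7042 in KO members, lower than the 10449 and 8373 CPM of macrophages with no Ifnb1 UMI. Apoe was the largest part of each sum, at 5699 and 3583 CPM in members against 6132 and 4246. Not every marker was lower, as Mertk stood at 91.9 and 95.6 against 71.7 and 74.8 CPM. Csf1r, the receptor gene for the growth factor of macrophages, stood at 306 CPM in SCR and 227 in KO members, beside 325 and 289 CPM. It did not pass the test described below. The 7 summed T cell markers were at 58.4 and 53.7 CPM in members against 76.5 and 60.3 CPM in macrophages with no Ifnb1 UMI, with Cd8a at 0 in members. The 6 neutrophil markers were at 26.0 and 22.9 against 58.5 and 56.8 CPM, with Cxcr2 and Retnlg at 0. Among 6 markers of plasmacytoid dendritic cells, which are known for high type I interferon output, Siglech and Klk1 were at 0 in members, and the sum was 75.2 and 97.6 against 81.9 and 87.5 CPM. All 5 fibroblast markers were at 0, and the 7 melanoma markers were at 136 and 133 against 162 and 149 CPM. The sum of the 6 B cell markers was higher in members, at 118 and 119 against 92.5 and 107 CPM. Not every marker was, as Cd79b stood at 17.2 and 28.2 against 26.1 and 31.8 CPM. The sum of the 5 markers of type 1 conventional dendritic cells was higher too, at 209 and 257 against 190 and 216 CPM. Most of that sum was Cadm1, at 165 and 221 against 143 and 167 CPM. No marker of either list was at 0 in members, and their part in the results was not tested.

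Members were then compared with the 2568 SCR and 3047 KO macrophages that passed every other gate and had no Ifnb1 UMI (Ifnb1-zero macrophages). UMIs were summed per library and cell group and tested with edgeR's quasi-likelihood test with Benjamini-Hochberg adjustment over 13381 genes, without the 14 genes of the rule and the 4 other markers that came with it. A gene is said to have risen or fallen where its adjusted p was below 0.05. In members 727 genes rose (5.43% of those tested) and 244 fell (1.82%). Of these, 701 rises and 243 falls had the same direction in both libraries. The 4 sums leave 1 residual degree of freedom and the fit gave genes of like abundance 1 common spread, so these p-values rest on that spread and not on each gene's own. Members were deeper (medians 13227 and 11562 UMIs) than Ifnb1-zero macrophages (10961 and 9429). With both groups limited to the middle range of the members' depths 361 genes rose and 58 fell, DESeq2 called 300 and 50, and 365 and 63 passed without the library block. A rise or fall that passed in all 4 fits with the same direction in both libraries is called stable below, and there were 240 stable rises and 33 stable falls.

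The interferon ligands came first. Of 20 genes of type I and III interferons, Ifnb1 among them, 4 others had enough UMIs to be tested. All 4 rose, a count that says little because they passed the filter on low counts through the members. Ifna2 had 253 UMIs in 32 SCR members and 63 in 8 KO members, against 17 and 8 UMIs in the far larger Ifnb1-zero groups. Ifna4 had 164 UMIs in 31 SCR and 19 in 5 KO members, against 2 and 0. Ifna5 had 110 UMIs in 11 SCR and 4 in 2 KO members, against 1 and 0. Ifna1 had 134 UMIs in 10 SCR members and 1 in KO, against 8 and 0, and was not a stable rise. In both libraries the members stood above the Ifnb1-zero groups, and few cells carried the transcripts. The Ifna genes are near-identical copies, so how their reads were shared among them is uncertain, and the sum over the family is the safer value.

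Over the whole Ifna family, 60 of 281 SCR members held any Ifna UMI (21.4%, exact 95% interval 16.7 to 26.6%), and 12 of 129 KO members (9.30%, 4.90 to 15.7%). Of Ifnb1-zero macrophages 14 of 2568 and 2 of 3047 did, and of T cells 1 of 149 and 0 of 123, the latter allowing up to 2.44% by 3 counts of the total. SCR members held 698 Ifna UMIs, of which 1 cell held 103 and another 75. KO members held 87, of which 81.6% were in 5 cells. Ifna transcripts were not confined to members. Of all filtered cells, 95 in SCR and 20 in KO held at least 3 Ifna UMIs. Members were 42 and 7 of these cells, and 76 and 14 of them held at least 3 Ifnb1 UMIs. In SCR, members with an Ifna UMI had a median of 18 Ifnb1 UMIs and those without had 11. The KO medians were 19 and 9. The depths of these groups were near each other in SCR (12740 and 13376 UMIs at the median) and not in KO (14335 and 11488). Of other ligands, Ifnl2, Ifne and Ifnk had no UMI in members.

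Among 23 genes of sensors and adaptors 7 rose and none fell, with a median log2 fold change of 0.27 against -0.02 over all genes tested. Ifih1, which encodes the double-stranded RNA sensor MDA5, was at 906 CPM in SCR and 896 in KO members against 142 and 133 in Ifnb1-zero macrophages (log2 fold change 2.84, SE 0.10, adjusted p = 7.97e-178). Both libraries agreed in size, and this was the 1 stable rise of the list. The others rose by less. Zbp1, a sensor of Z-form nucleic acid, rose by 0.69 (SE 0.11). Rigi, which encodes RIG-I, rose by 0.63 (SE 0.15), and Aim2, a sensor of cytosolic DNA, by 0.53 (SE 0.13). Sting1 was at 61.3 and 51.1 CPM against 40.4 and 45.3 CPM and rose. Cgas, the DNA sensor upstream of STING, was lower in members of both libraries (8.49 and 6.55 against 12.6 and 15.0 CPM) without passing the test.

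Of 15 transcription factor genes of the Ifnb1 enhancer and the interferon response 7 rose and none fell. Atf3, a factor of the AP-1 kind, was at 3280 and 2893 CPM in SCR and KO members against 2391 and 2642 (log2 0.41, SE 0.08), 1 of 2 stable rises. Stat2 (0.63, SE 0.13) and Jun, a subunit of AP-1 (0.40, SE 0.08), rose as well. Irf3 was at 14.4 and 21.6 CPM against 22.3 and 20.1, and the kinase gene Tbk1 at 55.3 and 45.8 against 57.0 and 57.2, and neither passed. Irf7, itself an interferon-stimulated gene, was at 181 and 285 CPM against 167 and 199 and rose by 0.43. Of 12 receptor and feedback genes 1 rose, Usp18, which encodes a brake on IFNAR signalling (1.18, SE 0.14, stable). The receptor genes Ifnar1 (66.9 and 40.6 against 74.0 and 64.0 CPM) and Ifnar2 (189 and 207 against 199 and 206 CPM) did not pass.

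The 4 markers given with the rule are interferon-stimulated genes and were kept out of the test. Ifit2, which encodes a binder of viral RNA, stood at 720 CPM in SCR and 1414 in KO members against 85.7 and 119 in Ifnb1-zero macrophages. Rsad2, which encodes the antiviral enzyme viperin, stood at 1220 and 2124 CPM against 167 and 203. Cmpk2, its neighbour and a nucleotide kinase gene, stood at 125 and 289 against 30.2 and 43.0 CPM. Oasl1 stood at 1136 and 1372 against 238 and 294 CPM. The smallest of these ratios was 4.13, for Cmpk2 in SCR, and the largest was 11.9, for Ifit2 in KO.

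Of the other antiviral interferon-stimulated genes 25 of 37 rose and none fell (median log2 0.72), and 17 of the rises were stable. The list shares Ifih1, Rigi, Dhx58, Zbp1, Irf7 and Usp18 with the lists above. Ifit1, which encodes a sensor of viral RNA caps, was at 699 CPM in SCR and 1128 in KO members against 54.4 and 69.5, a ratio of 12.8 and 16.2 (log2 3.97, SE 0.10, adjusted p = 1.51e-305). It had the largest rise of all genes that the naming rule admits. Isg15, a ubiquitin-like modifier, was at 2491 and 4065 CPM against 564 and 661 (log2 2.50, SE 0.09). Mx2, a GTPase gene, was at 201 and 178 against 23.1 and 24.8 CPM (log2 3.11, SE 0.12), and Ifit3b at 115 and 211 against 16.2 and 25.5 CPM (log2 3.05, SE 0.12). The response did not extend to the whole list. Ifitm3, which encodes a membrane block to viral entry, was at 1145 and 1160 CPM against 1127 and 1258 and Oas2 at 14.9 and 18.3 against 14.5 and 15.9, and neither passed. Ifit and Oas genes have close copies, so their single values are uncertain.

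**Figure D2:**
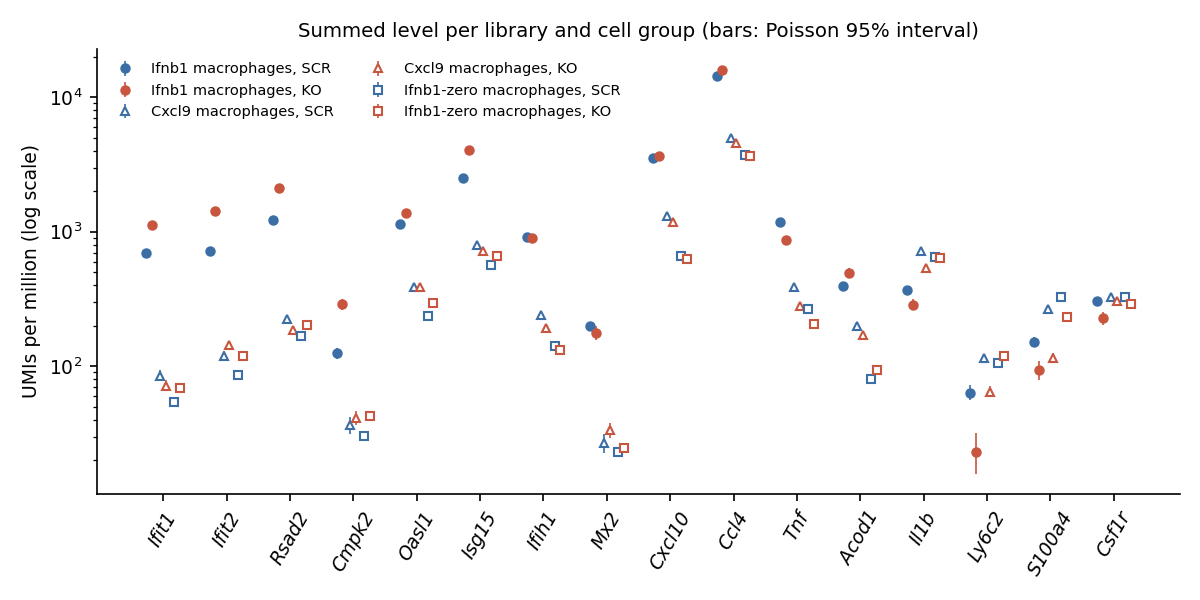
Summed level in CPM (y axis, log scale) of 16 genes in Ifnb1 macrophages (filled circles), Cxcl9 macrophages (open triangles) and Ifnb1-zero macrophages (open squares) of the SCR (blue) and KO (red) libraries, with Poisson 95% intervals. The circles of Ifit1, Ifit2, Rsad2, Isg15, Cxcl10, Ccl4 and Tnf lie above the other groups in both libraries, those of Il1b and S100a4 lie below the squares, and the 3 groups of Csf1r lie close together.

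NF-κB drives both Ifnb1 and a set of inflammatory cytokine genes, and that set divided. Of 27 genes of NF-κB cytokines and feedback 12 rose and 2 fell (median log2 0.48), with 8 stable rises and 1 stable fall. Tnf was at 1177 and 874 CPM in SCR and KO members against 266 and 206 (log2 2.24, SE 0.09, adjusted p = 1.20e-119). Tnfsf15, which encodes the cytokine TL1A, was at 36.5 and 87.1 CPM against 5.07 and 3.89 (3.76, SE 0.20). Il6 had low levels of 10.3 and 9.17 against 1.52 and 1.48 CPM (2.82, SE 0.41), and Il27 was at 11.1 and 29.5 against 3.89 and 4.50 CPM. The feedback gene Tnfaip3, which encodes the NF-κB inhibitor A20, rose by 1.00 (SE 0.09). Il1b moved the other way. Il1b, which encodes interleukin 1β, was at 371 and 288 CPM in members against 649 and 640 CPM (fell by 0.85 on the log2 scale, SE 0.09, adjusted p = 6.04e-17). Nlrp3, the sensor gene of the inflammasome that processes interleukin 1β, was at 98.3 and 66.8 against 135 and 125 CPM and fell by 0.52.

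Of 20 chemokine genes 12 rose and 3 fell (median log2 0.49), with 10 stable rises and 2 stable falls. Ccl4, which attracts T cells and monocytes, was at 14440 CPM in SCR and 15858 in KO members against 3707 and 3638 (log2 2.16, SE 0.08), the highest level of the list. Cxcl10, a ligand of CXCR3 on T cells, was at 3551 and 3668 CPM against 665 and 625 (2.60, SE 0.09, adjusted p = 7.25e-177). Ccl3 rose by 1.75 (SE 0.09). Ccl5, which also attracts T cells, was at 460 and 1169 CPM against 163 and 221 (2.07, SE 0.10). The Ccl5 level of KO members was above that of SCR members, and both were above their Ifnb1-zero group. Ccl6 (377 and 250 against 743 and 688 CPM) and Ccl9 (162 and 139 against 256 and 235 CPM) fell. Cxcl3 passed as a fall with opposite directions in the libraries (6.18 against 25.6 CPM in SCR, 12.4 against 10.2 in KO).

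Genes best known as targets of interferon-γ rose almost throughout, at 18 of 19 genes and none falling (median log2 1.16), and 11 of the rises were stable. Acod1, which encodes the enzyme that makes itaconate, was at 395 and 497 CPM in members against 80.7 and 93.3 (2.47, SE 0.10). Cxcl9, a CXCR3 ligand, was at 639 and 770 against 209 and 257 CPM (1.72, SE 0.09) and the GTPase gene Gbp5 at 91.4 and 105 against 24.3 and 30.9 CPM (1.96, SE 0.13). Ifng itself had 9 UMIs in SCR and 2 in KO members. Ccl5 is also on this list, and several of its genes answer to type I interferon too. Ciita was the list's gene that was tested and did not rise.

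Of 20 genes of antigen presentation 13 rose and none fell, but 6 of the 13 had opposite directions in the libraries. Cd86, a costimulator of T cells, was at 468 and 482 CPM in members against 239 and 242 (1.10, SE 0.10, stable). H2-T23 (0.55, SE 0.10) and the immunoproteasome gene Psmb9 (0.49, SE 0.10) were the other stable rises. The 6 were genes of MHC class II. Cd74, which encodes the class II chaperone, was at 8038 against 5229 CPM in SCR and at 5449 against 5513 CPM in KO (log2 0.42, SE 0.08, by the fit of both). H2-Eb1 was at 2309 against 1433 CPM in SCR and at 1341 against 1468 CPM in KO. H2-Aa was at 2798 against 1847 and at 1917 against 2041 CPM. Class II genes were thus higher in members in the SCR library and at or just below Ifnb1-zero macrophages in the KO library. Of 18 genes of ligands and receptors for T and NK cells 6 rose and none fell, with Cd86, Cd274 and Cd40 stable. Cd274, which encodes PD-L1, was at 178 and 235 CPM against 114 and 119 (0.92, SE 0.10), and Cd40, a receptor for T cell help, at 90.6 and 109 against 56.8 and 63.8 (0.84, SE 0.12). Il15 rose by 1.06 (SE 0.15), at 31.4 and 74.0 against 24.8 and 24.7 CPM.

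**Figure D3:**
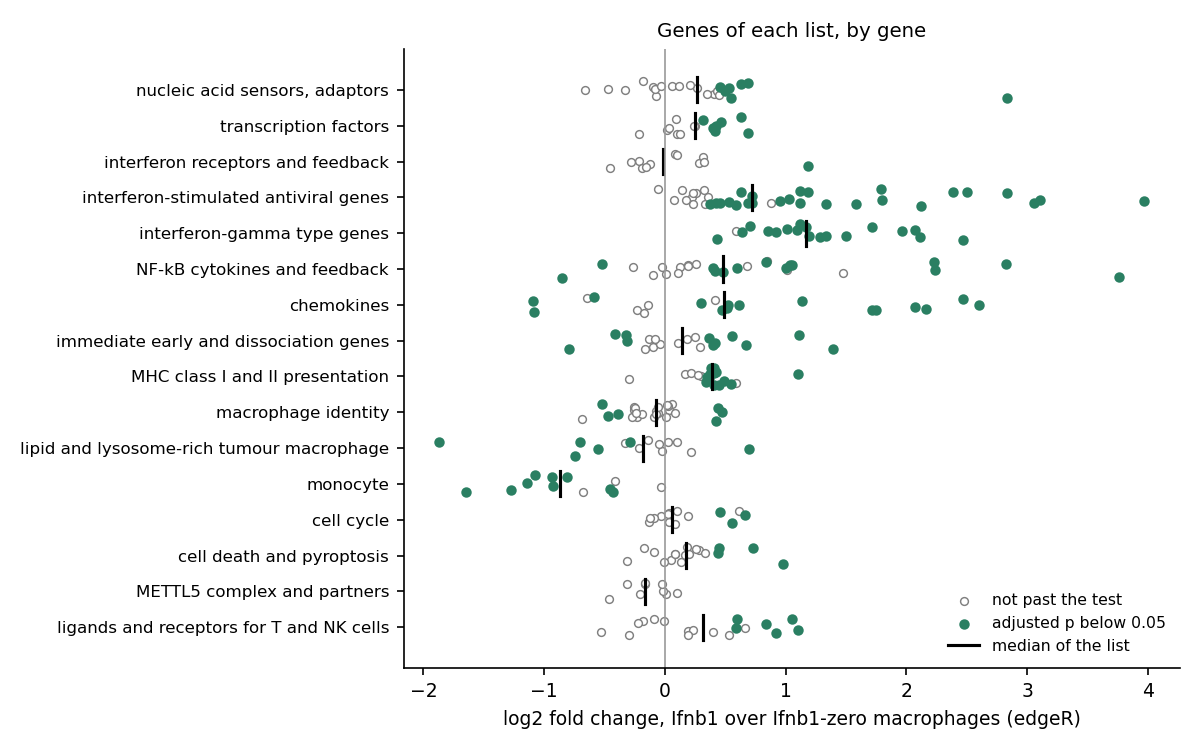
Log2 fold change of Ifnb1 over Ifnb1-zero macrophages (x axis, edgeR fit of both libraries) for each tested gene of 16 gene lists (y axis). Filled points passed an adjusted p of 0.05, open points did not, and black bars are list medians. Points of the interferon-gamma list lie right of 0 with 18 of 19 filled, those of the monocyte list lie left of 0 with 9 of 12 filled, and the NF-κB and chemokine lists hold filled points on both sides.

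Monocyte genes were lower in members. Of 12 such genes 9 fell and none rose (median log2 -0.87), and Fn1, S100a4 and Thbs1 were stable falls. S100a4 was at 153 and 93.7 CPM in members against 329 and 234 (fell by 1.08, SE 0.11) and Fn1, which encodes fibronectin, at 31.4 and 28.2 against 82.1 and 74.1 (fell by 1.27, SE 0.15). S100a6 fell by 0.94 (SE 0.09). Ly6c2, the surface marker of inflammatory monocytes, was at 63.8 and 22.9 against 105 and 120 CPM (fell by 1.14, SE 0.13), and lost its call without the block (adjusted p = 0.0825) and with DESeq2 (adjusted p = 0.884). Both libraries had lower summed levels of these 4 genes in members. In SCR the share of cells with any Ly6c2 UMI was nearly the same, at 18.1% of members and 18.3% of Ifnb1-zero macrophages. In KO the shares were 9.30% and 20.1%. The Ly6c2 level of SCR members was also uneven, at 147 CPM with 3 to 4 Ifnb1 UMIs and 17.3 CPM with 20 to 39.

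Other lists changed little. Of 25 macrophage identity genes 3 rose and 3 fell, and none was stable. Pf4 was at 781 and 685 against 1299 and 998 CPM (fell by 0.52) and Folr2 at 58.7 and 49.1 against 87.1 and 75.2 (fell by 0.47). Mertk and Axl, receptors for the clearance of dead cells, rose by 0.47 and 0.44. Of 14 genes of lipid- and lysosome-rich tumour macrophages 5 fell and 1 rose, none stably. The elastase gene Mmp12 was at 148 and 284 against 376 and 344 CPM (fell by 0.71) and Gpnmb at 170 and 229 against 353 and 271 CPM (fell by 0.55). Atp6v0d2 fell by 0.74 and Ctsk, the gene of the protease cathepsin K, by 1.87 (10 and 4 UMIs in members), and Slc2a1, the glucose transporter gene, rose by 0.70. Of 14 cell cycle genes 3 rose, Pcna by 0.66 and Hmgb2 by 0.56, both stable, and Birc5 by 0.46. The gate on Mki67 and Top2a limits what this list can show. Of 18 cell death genes 4 rose. They were Mlkl (0.98, SE 0.17, stable), the effector gene of necroptosis, Ripk3 (0.73, SE 0.16), Bcl2l11 (0.44) and Bcl2a1d (0.45). No gene of METTL5 and its partners passed, and Mettl5, intact in these host cells, had 30 UMIs in SCR and 18 in KO members.

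Immediate early and heat shock genes respond to tissue dissociation as well as to signals in the tumour. Of 20 such genes 7 rose and 4 fell (median log2 0.14), with 5 stable rises and 1 stable fall. Hspa1b was at 495 and 423 CPM in members against 180 and 203 (1.39, SE 0.10), Hspa1a rose by 1.11 (SE 0.09) and Hsp90aa1 by 0.67 (SE 0.09). Nr4a1 fell by 0.79 (SE 0.10), at 171 and 153 against 292 and 326 CPM. Hspa1b, Hspa1a and Hsp90aa1 were thus higher in members of both libraries. Dnajb1, another heat shock gene of the list, passed with opposite directions, higher in members of SCR and lower in members of KO. The part of the heat shock genes in the other results was not tested. Hspa1a and Hspa1b are near-identical copies.

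The remaining largest changes lay outside the lists. Otud1, a deubiquitinase gene, was at 105 and 193 CPM in members against 22.2 and 24.2 (log2 2.73, SE 0.12). AW011738 rose by 2.87 (SE 0.17), Plagl1 by 2.72 (SE 0.22) and Art3 by 2.69 (SE 0.20), each in both libraries. Enah, which encodes a regulator of actin, rose by 2.68 (SE 0.28) but lost its call among cells of matched depth (0.86, adjusted p = 0.632). Among the falls, the neutrophil genes S100a9 and S100a8 came from few cells. S100a9 had 2 UMIs in members against 1175 in Ifnb1-zero macrophages, a ratio of 0.0193 (exact 95% interval 0.00234 to 0.0700) per UMI sequenced. S100a8 had 7 against 727. Fbxo32, a ubiquitin ligase gene, had 16 UMIs against 1567, a ratio of 0.116 (0.0661 to 0.189), and the lysozyme gene Lyz1 had 12 against 797, a ratio of 0.171 (0.0880 to 0.300). Retnla, a gene of alternatively activated macrophages, had 65 UMIs in members, in 12 SCR cells and no KO cell (0 of 129, which allows up to 2.33% by 3 counts of the total), against 5155. Its call was lost with DESeq2 (adjusted p = 0.731) and its direction turned with members of at least 2 Ifnb1 UMIs (log2 0.62, adjusted p = 0.747), since 745 Retnla UMIs lay in the 22 KO macrophages with 2 Ifnb1 UMIs. Slc39a12, G0s2, Sdc1, Ednrb and Serpinh1, with 1, 2, 7, 6 and 7 UMIs in members, also fell, and none of these 5 kept its call with DESeq2 or among cells of matched depth.

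Levels were also read along the number of Ifnb1 UMIs, a description in which Ifnb1 sets the order. Ifit1 stood at 54.4 CPM in SCR macrophages with no Ifnb1 UMI, at 380 with 1, at 588 with 3 to 4, at 620 with 10 to 19 and at 1188 with 40 or more. The KO values were 69.5, 563, 745, 1555 and 2431 CPM. Macrophages with a single Ifnb1 UMI, which are not members, thus already stood well above those with none, and the steps were uneven, with KO members of 20 to 39 Ifnb1 UMIs at 676 CPM. Ccl4 rose from 3707 to 8708 CPM between 0 and 1 UMI in SCR and reached 17827 CPM at 40 or more, and from 3638 to 11480 and 26340 CPM in KO. Tnf went from 266 to 546 and 1547 CPM in SCR and from 206 to 502 and 1152 CPM in KO. The Ifna family behaved otherwise. It stood at 136 CPM in SCR members with 20 to 39 Ifnb1 UMIs and at 764 CPM in the 28 with 40 or more, which held 317 of the 698 Ifna UMIs. In KO the top class had 12 cells and 246 CPM. Il1b was at 649 CPM with no Ifnb1 UMI and at 320 CPM in the top class in SCR, and at 640 and 75.6 CPM in KO, where the class of 20 to 39 had 1 Il1b UMI in 12 cells. Its course between was not a steady decline. With 1 Ifnb1 UMI it stood at 726 CPM in SCR and 806 in KO, and with 3 to 4 at 648 CPM in SCR. Csf1r stayed between 275 and 349 CPM in SCR. In KO it lay between 183 and 289 CPM and was highest in macrophages with no Ifnb1 UMI. Depth moved with the order, with a median of 10961 UMIs in SCR cells without Ifnb1 and 13557 in the top class, and 9429 and 12633 in KO, and its part was not tested.

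**Figure D4:**
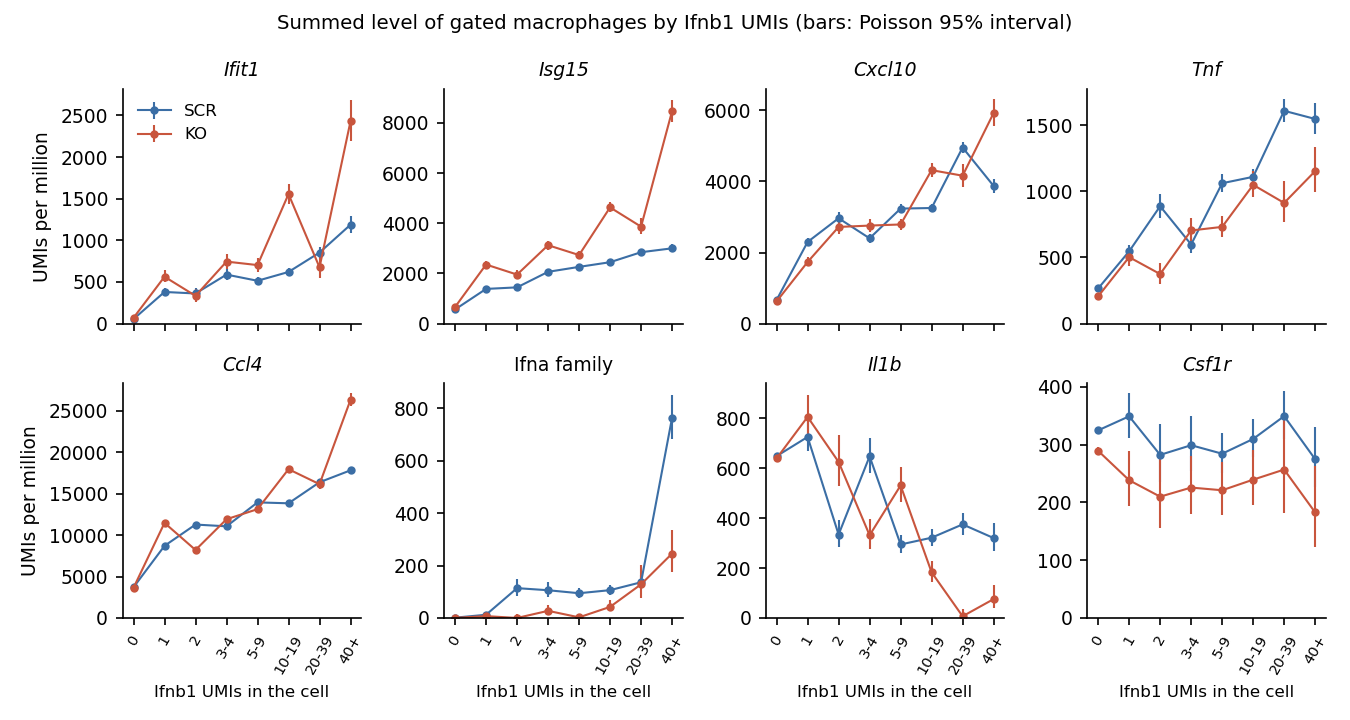
Summed level in CPM (y axis) of 8 genes or gene families in gated macrophages by the number of Ifnb1 UMIs in the cell (x axis), in the SCR (blue) and KO (red) libraries, with Poisson 95% intervals. Ifit1, Isg15, Cxcl10, Ccl4 and Tnf are above their level at 0 UMIs in every other class. The SCR Ifna family is far higher in the class of 40 or more (764) than in that of 20 to 39 (136). Csf1r varies little in SCR, and in KO it is below its level at 0 UMIs in every other class.

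Macrophages with Cxcl9, a gene of the interferon-γ list, served as a further reference, and their likeness to the members was not measured. These Cxcl9 macrophages passed the same gates with no Ifnb1 UMI and at least 3 Cxcl9 UMIs, and numbered 393 in SCR and 555 in KO. Their median depths (13153 and 11238 UMIs) were close to those of the members. Of 10830 genes tested, with Cxcl9 left out as well, 737 were higher in members (6.81%) and 137 lower (1.27%), of which 715 and 135 had the same direction in both libraries. DESeq2 called 167 and 11. Members and their sums are the same as in the comparison above, so only this comparison's own values are given.

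The largest differences were again antiviral genes. Ifit1 was at 699 and 1128 CPM in SCR and KO members against 85.4 and 71.9 in Cxcl9 macrophages (log2 3.63, SE 0.11), Ifit3b at 115 and 211 against 15.5 and 28.8 (3.01, SE 0.14) and Mx2 at 201 and 178 against 27.0 and 33.4 (2.78, SE 0.13). Otud1 followed at 2.50 (SE 0.14) and Tnfsf15 at 2.49 (SE 0.20), though Tnfsf15 lost its call with DESeq2 (adjusted p = 0.484). Of the antiviral list 19 of 37 genes were higher and none lower (median log2 0.48), 14 of them in every fit run for this comparison. Cxcl10 (1.67, SE 0.09), Ccl4 (1.80, SE 0.09), Tnf (1.75, SE 0.10) and Ifih1 (2.19, SE 0.10) were higher as well. Il1b was lower, at 371 and 288 against 725 and 542 CPM.

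Of 18 interferon-γ type genes 6 were higher and 3 lower in members, with a median of -0.05. The reference cells were chosen on Cxcl9, a gene of this list. Their levels of such genes may be raised by that choice, which was not tested. At least 3 Cxcl9 UMIs were held by 42.3% of SCR and 41.1% of KO members. Acod1 was higher (1.38, SE 0.10), and Gbp5 was at 91.4 and 105 against 69.5 and 77.1 CPM (0.55, SE 0.13). Class II genes were lower in members than in these cells chosen on Cxcl9, and the part of that choice was not tested. Cd74 was at 8038 and 5449 CPM against 9620 and 8053 (log2 -0.28, SE 0.09) and H2-Eb1 at 2309 and 1341 against 2813 and 2245 (log2 -0.38, SE 0.09), so both libraries had the same direction here. Of the 20 presentation genes 6 were lower and Cd86 was higher (0.68, SE 0.10). Of 14 genes of lipid- and lysosome-rich macrophages 10 were higher and none lower (median log2 0.54), with Gpnmb at 170 and 229 against 103 and 136 CPM. Of 12 monocyte genes 6 were lower and 1 higher. No fall of the presentation or monocyte lists passed in every fit run for this comparison, in which 4 of the 137 falls and 161 of the 737 rises did with the same direction in both libraries. The largest falls were AA467197 (18.8 and 3.28 against 42.2 and 41.2 CPM), Ifitm1, Klrb1b, Tppp3 and Ltb4r1 (log2 -1.32, -1.13, -0.98 and -0.94), and DESeq2 called none of these 5.

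Within the members, KO was set beside SCR by ratio alone. Of 5667 genes with at least 100 UMIs over the members of both libraries, 29 (0.512%) had a KO to SCR ratio of at least 2 and 20 (0.353%) a ratio of at most 0.5. KO was the higher for 49.5% of the genes. The 4 given markers were higher in KO members, with ratios of 1.96 for Ifit2 (exact 95% interval 1.86 to 2.08), 1.74 for Rsad2 (1.66 to 1.82), 2.31 for Cmpk2 (2.03 to 2.64) and 1.21 for Oasl1 (1.14 to 1.27). In Ifnb1-zero macrophages the same ratios were 1.39, 1.22, 1.42 and 1.24. The difference in members was uneven along the number of Ifnb1 UMIs. In members with 20 to 39 the 4 markers were lower in KO, with Rsad2 at 1277 against 1570 CPM in SCR and Cmpk2 at 122 against 167. They were higher in KO in the other classes of members, and most so in the class of 40 or more, which had 12 KO cells. Of the antiviral list, 30 of 33 genes were higher in KO members, with a median ratio of 1.44. In Ifnb1-zero macrophages 32 of the 33 were higher, with a median of 1.13. The largest of these ratios was that of Isg20 at 2.44 (1.73 to 3.44), and Isg15 had 1.63 (1.58 to 1.69). Mx2 (0.885, 0.768 to 1.02) and Ifih1 (0.988, 0.928 to 1.05) were not higher. Of the interferon-γ type list 17 of 18 were higher in KO members, with a median ratio of 1.32 against 1.23 in Ifnb1-zero macrophages, led by Ccl5 at 2.54 (2.38 to 2.71).

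**Figure D5:**
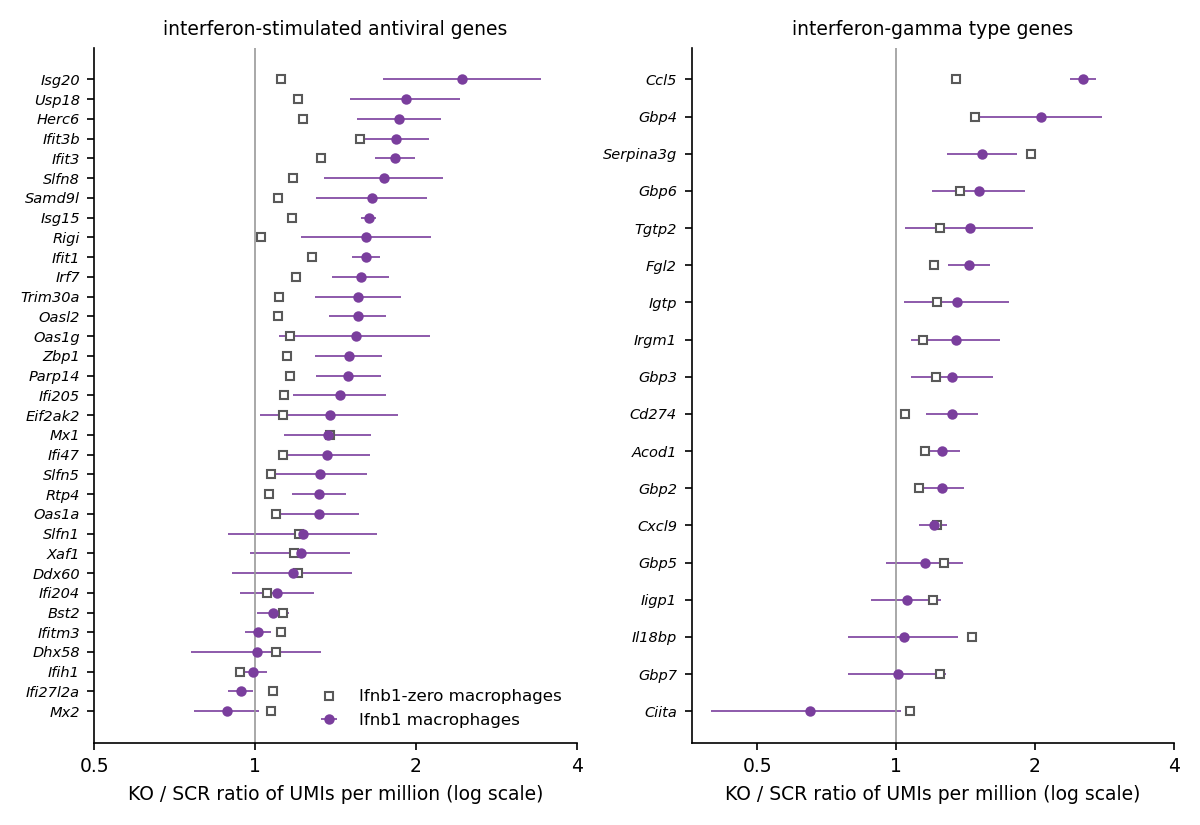
KO to SCR ratio of CPM (x axis, log scale) for genes of the antiviral and interferon-gamma lists (y axis) in Ifnb1 macrophages (filled circles, exact 95% counting intervals) and Ifnb1-zero macrophages (open squares). In the antiviral list 30 of 33 circles lie above a ratio of 1, with Isg20 highest at 2.44 and Mx2 lowest at 0.885, and most squares lie nearer to 1. One library stands behind each genotype, so the intervals do not cover the spread between tumours.

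The Ifna genes went the other way. Over the family, the safer value, SCR members held 698 Ifna UMIs among 3885132 and KO members 87 among 1526581. The ratios of single genes are less certain, since how reads were shared among the near-identical copies is not known. Ifna1 had 134 UMIs in SCR members and 1 in KO, a ratio of 0.0190 (exact 95% interval 0.000477 to 0.108). Ifna5 had 110 and 4 (0.0925, 0.0248 to 0.244) and Ifna4 164 and 19 (0.295, 0.173 to 0.475). These 3 were the smallest ratios of all, and came from 10, 11 and 31 SCR members and from 1, 2 and 5 KO members. Without the top cell of each library the ratio of Ifna5 was 0.0355, and without the 5 members of most Ifna UMIs in each library that of Ifna4 was 0.114 and KO members held no Ifna1 UMI. Ifna2 had a ratio of 0.634 (0.473 to 0.838). Ifnb1 itself, on which the cells were selected, had a ratio of 0.999.

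Monocyte and class II genes were lower in KO members and not, or less so, in KO Ifnb1-zero macrophages. Of 7 monocyte genes with enough UMIs, 6 were lower in KO members, with a median ratio of 0.614 against 0.903 in Ifnb1-zero macrophages. Ccr2, the receptor gene by which monocytes leave the marrow, had 212 UMIs in 60 SCR members and 26 in 9 KO members (0.312, 0.199 to 0.470), against a ratio of 0.787 in Ifnb1-zero macrophages. With members of at least 2 Ifnb1 UMIs the Ccr2 ratio was 0.553. Ly6c2 had a ratio of 0.359 (0.245 to 0.513) against 1.14. H2-Eb1 had a ratio of 0.581 (0.553 to 0.609) and Cd74 one of 0.678 (0.662 to 0.694), against 1.02 and 1.05. Bambi, which encodes a decoy receptor of the TGF-β family, had 126 and 16 UMIs (0.323, 0.179 to 0.546) and a ratio of 1.11 in Ifnb1-zero macrophages. Genes of lipid- and lysosome-rich macrophages went the other way, with 10 of 13 higher in KO members (median ratio 1.22) against a median of 0.798 in Ifnb1-zero macrophages, and Mmp12 had a ratio of 1.92 (1.69 to 2.17).

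Among the 5 largest ratios were those of Enah, Ifi209, Rc3h2 and Hspb1. Enah had 44 UMIs in SCR and 57 in KO members (3.30, 2.19 to 5.00), and 36 of the 57 lay in 1 cell. Without the top cell of each library its ratio was 2.06, and with each cell scaled to the same total it was 5.40. Ifi209, an interferon-inducible gene, went from 48.4 to 139 CPM (2.87, 2.35 to 3.51), in 99 SCR and 60 KO members. Rc3h2, which encodes a regulator of messenger RNA decay, had a ratio of 2.80 (2.08 to 3.78). Hspb1, a small heat shock gene, had 379 KO UMIs in 17 members, 150 of them in 1 cell, and a ratio of 2.71 (2.34 to 3.14). In Ifnb1-zero macrophages these 4 ratios lay between 0.906 and 1.45. Of 20 NF-κB cytokine and feedback genes 8 were higher in KO members (median ratio 0.967), and Tnfsf15 (2.38, 1.87 to 3.04) and Il15 (2.36, 1.81 to 3.07) passed a ratio of 2, beside 0.767 and 0.996 in Ifnb1-zero macrophages. Tnf had a ratio of 0.743 beside 0.775. Of 16 chemokine genes 10 were higher (median 1.08), with Cxcl10 at 1.03, Ccl4 at 1.10 and Ccl5 above 2 as given.

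The 5 markers of mature dendritic cells summed to 9.01 CPM in SCR and 58.3 in KO members, against 28.9 and 50.5 CPM in Ifnb1-zero macrophages. In KO members 59 of the 89 UMIs lay in 1 cell, and Cacnb3 was at 0 in members. Without the 3 members of each library that held at least 3 of these UMIs, 43 genes passed a ratio of 2 or 0.5 in place of 49.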

How the data were processed

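Single-cell RNA sequencing measured transcripts of CD45+ tumour cells in 2 libraries. The deposited matrices hold raw UMI counts per gene and barcode, made by the authors with Cell Ranger 8.0.1 per the file headers, and GRCm39 is named in the submitters' processing notes. The matrix named WT belongs to the sample labelled SCR. The matrices held 8341 and 8454 barcodes, of which 116 occurred in both libraries, 6 of them members, and none a member in both. The other files of the series (ribosome footprints, RNA of cultured cells and T cell receptor sequences) were not used here.

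The members and gene lists were chosen with earlier results of these data known. Counts were summed per library and cell group and tested with edgeR 4.0.16 (TMM, filterByExpr, glmQLFit) in R 4.3.3 with the library as a block, since both groups of cells come from each library. DESeq2 1.42.0 served as an alternative. The labels do not say how many mice each library holds, so the spread may be technical. On simulated counts of 13381 genes with 200 changed, the test found 78% of those changed by 1 on the log2 scale and 93% of those changed by 2, and 5% of its calls were false. These counts were drawn with the fit's own spread and no difference between libraries, and only genes of at least 100 UMIs were changed. The simulation therefore cannot tell how many calls on the real counts are false. CPM divides a gene's UMIs by all UMIs of the group in that library. Members held 3885132 UMIs in SCR and 1526581 in KO, Ifnb1-zero macrophages 30354476 and 31096353. Shares have exact Clopper-Pearson 95% intervals, a count of 0 a limit of 3 counts of the total, levels exact Poisson, ratios of levels exact conditional and the ratio of shares a log-scale normal interval. Doublets were not removed: Scrublet in scanpy 1.11.5 called 0 and 1 cells, so it had not worked.

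Named genes were the rule genes and given markers, the 10 largest rises and falls against Ifnb1-zero macrophages and the 5 against Cxcl9 macrophages (at least 100 UMIs in each library, same direction in both, predicted genes left out), the 5 highest and lowest KO to SCR ratios, and up to 4 called and 2 other members per list. Some genes that this rule names are not reported here. Further genes were named after their values were seen. All 388 list genes were matched, 2 by an older symbol. Alternatives changed the block, tool, scaling, filters, gates and depth.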

Additional observations from a re-analysis of the deposited data

Results flagged for a closer look

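For 9 genes of the gene lists that passed edgeR's quasi-likelihood test between Ifnb1 macrophages and Ifnb1-zero macrophages, the SCR and KO libraries moved in opposite directions. With 1 library per genotype this difference was not tested, and each value below is the log2 ratio of members to Ifnb1-zero macrophages in SCR minus that in KO. Of class II genes, the differences were 0.82 for H2-Eb1, 0.71 for H2-Ab1, 0.69 for H2-Aa, 0.64 for Cd74, 0.55 for H2-DMb1 and 0.48 for H2-DMa, each higher in members of SCR and lower in members of KO. H2-Ab1 stood at 2561 CPM in SCR members against 1652 in Ifnb1-zero macrophages, and at 1714 against 1806 in KO. Cx3cr1, the fractalkine receptor gene, differed by 0.57 and the heat shock gene Dnajb1 by 0.68, both higher in members of SCR and lower in members of KO. Cxcl3 differed by -2.34, with 24 UMIs in SCR and 19 in KO members.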

How the results depend on the processing

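The count of 971 genes that differed from Ifnb1-zero macrophages fell to 428 (365 rises, 63 falls) without the replicate block, to 350 (300, 50) with DESeq2 and to 419 (361, 58) at matched depth, where fewer cells entered. Under the other 9 alternatives it lay between 707 and 972. The count of 874 against Cxcl9 macrophages fell to 422 (402, 20) without the replicate block, to 178 (167, 11) with DESeq2 and to 515 (453, 62) against macrophages with at least 10 Cxcl9 UMIs. The 49 genes past a ratio of 2 or 0.5 between KO and SCR became 155 with a minimum of 50 UMIs, and lay between 39 and 72 otherwise. The KO to SCR ratio of the share of members, 0.42, lay between 0.356 and 0.447. Retnla reversed to 0.62 with at least 2 Ifnb1 UMIs, and Cd74 to -0.017 without the SCR library. Over single genes, 986 of the gene and setting pairs were unchanged, 81 lost the call, 2 reversed, 5 moved and 3 had no adjusted p. Unchanged meant the same direction and call where a test was run. Without a library it meant the same direction only (76 pairs without SCR, 85 without KO). For KO to SCR ratios it meant a value inside the interval of the main ratio. With DESeq2 28 pairs lost the call and 57 were unchanged. Leaving out a library leaves no test, so no counts of genes passing were computed there. The fit without the cell called by Scrublet held the same cells in each group as the main fit. It is not counted among the alternatives. The 9 alternatives on shared barcodes, high UMI totals, direction in both libraries, all filtered cells, Ifna cells and dendritic cell markers were chosen after the data were seen. The UMIs of the members, fewest in KO, limit genes of low level.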
